A study of Mus musculus with 6 samples.

Results

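The splicing factor genes were taken as every gene whose symbol begins with Srsf and a digit, Hnrnp, Sf3a or Sf3b and a digit, or Snrp. Of 52636 genes listed, 57 had such a symbol. RNA had been sequenced from bone marrow neutrophils of C57BL/6N mice aged 10 weeks, from tibia and femur, in 3 libraries labelled WT and 3 labelled LRP5-KO. The mice labelled LRP5-KO carried floxed Lrp5 alleles and Cre in Lyz2 (LRP5f/f/Lyz2Cre+), which is active in myeloid cells and not in neutrophils alone. The comparison asks which transcripts differ in neutrophils that lack LRP5, a Wnt co-receptor, and the splicing factors are set here beside the share of reads that fell in introns. The labels do not say whether the replicates are separate mice, so p-values measure only the spread between these libraries.

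Introns are removed from pre-mRNA by the spliceosome, which assembles on each intron from small nuclear ribonucleoproteins (snRNPs). Each major spliceosomal snRNP other than U6 carries a ring of Sm proteins (Snrpb, Snrpd1, Snrpd2, Snrpd3, Snrpe, Snrpf and Snrpg), U1 recognises the 5′ splice site, and the SF3A and SF3B complexes of U2 hold the branch point. SR proteins (Srsf genes) bind exons and generally favour their inclusion, while heterogeneous nuclear ribonucleoproteins (hnRNPs) often act as silencers. In granulocytes, regulated retention of introns is a known feature of maturation.

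Expression was given in TPM, a transcript abundance scaled for transcript length and for the total of each library, so that levels of different genes can be set side by side. Only genes that averaged 1 TPM or more across the 6 libraries were tested. Of the 57 genes, 50 passed, with means from 4.89 TPM for Snrpa1 to 289.7 TPM for Srsf5. The other 7 were Srsf12, Snrpn, Hnrnpa1l2-ps, Hnrnpa1l2-ps2, Snrp1c-ps1, Snrp1c-ps2 and Snrpert. The first 3 of these and both Snrp1c pseudogenes were listed at 0 in every library. Many hnRNP and Sm genes have processed pseudogenes, and how reads shared with such copies were divided is not given in the sources used here, so the values of Hnrnpa1 and of the Sm genes are uncertain to that extent.

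The libraries held from 249841492 to 340580330 reads. Lrp5 itself was at 1.12, 1.31 and 1.42 TPM in the libraries labelled WT and at 1.68, 1.77 and 2.07 TPM in those labelled LRP5-KO (log2 fold change 0.31, limma adjusted p = 0.136). The transcript of the targeted gene was thus not lower in the libraries labelled LRP5-KO. TPM of a whole gene does not show whether its floxed part was removed. Every direction below rests on the labels. Lyz2, the gene that carries Cre, was lower in every library labelled LRP5-KO, at 14027, 13989 and 13360 TPM against 26791, 26300 and 24797 TPM (log2 fold change −0.91, limma adjusted p = 0.00351). WT replicate 3 stood apart from its group in ribosomal reads, at 3.30% against 1.20% and 1.3% in WT replicates 1 and 2, and the libraries labelled LRP5-KO lay between 2.69% and 2.98%. Ly6g, the defining surface marker of mouse neutrophils, was at 920 to 1104 TPM in all 6 libraries, and the summed level of 10 neutrophil markers was 371904 to 418965 TPM in the WT group and 403266 to 424305 TPM in the LRP5-KO group. Most of that sum was S100a8 and S100a9. Of the 10, S100a9 and Camp were higher and Cxcr2 lower in the LRP5-KO group without overlap (30%, against 29.7% of all genes tested). In limma 0 of the 10 were called, and 2 had an unadjusted p under 0.05 (20%, against 23.5%).

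None of the 50 splicing factor genes passed an adjusted p of 0.05 (limma on log2(TPM + 1), Benjamini-Hochberg over all 9775 genes tested). Over all genes tested, 26 were called higher (0.266%) and 26 lower (0.266%), so that a count of 0 among 50 genes is near the background. At an unadjusted p under 0.05 there were 8 splicing factor genes (16%), of which 6 were higher in the LRP5-KO group and 2 lower, against 23.5% of all genes tested. The values of the 2 groups did not overlap for 10 genes (20%), with Srsf4, Srsf7, Srsf6, Sf3b3, Snrpg, Snrpb, Snrpd2 and Snrpc higher and Sf3b1 and Hnrnph2 lower, against 29.7% of all genes tested. The median log2 fold change, LRP5-KO minus WT, was −0.0042 over the 50 genes and 0.04 over all genes tested. Of the 50, 23 had a positive and 27 a negative difference, from −0.35 for Snrpb2 to 0.40 for Snrpg. In bulk RNA, fewer cells of a type and less RNA per cell cannot be told apart.

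The precision of these differences was set by the spread between libraries, since TPM holds no read counts. The median standard error was 0.094 on the log2 scale. For 43 of the 50 genes the 95% interval of the log2 fold change lay within 0.5 of 0 on both sides, and over all 50 the bounds ran from −0.79 to 0.65. The libraries labelled WT were the more variable, with a larger SD of log2(TPM + 1) than the libraries labelled LRP5-KO in 35 of 50 splicing factor genes (70%). The median SD was 0.13 in the WT group and 0.071 in the LRP5-KO group, and a larger SD in the WT group was also found for 72.8% of all genes tested.

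**Figure D1:**
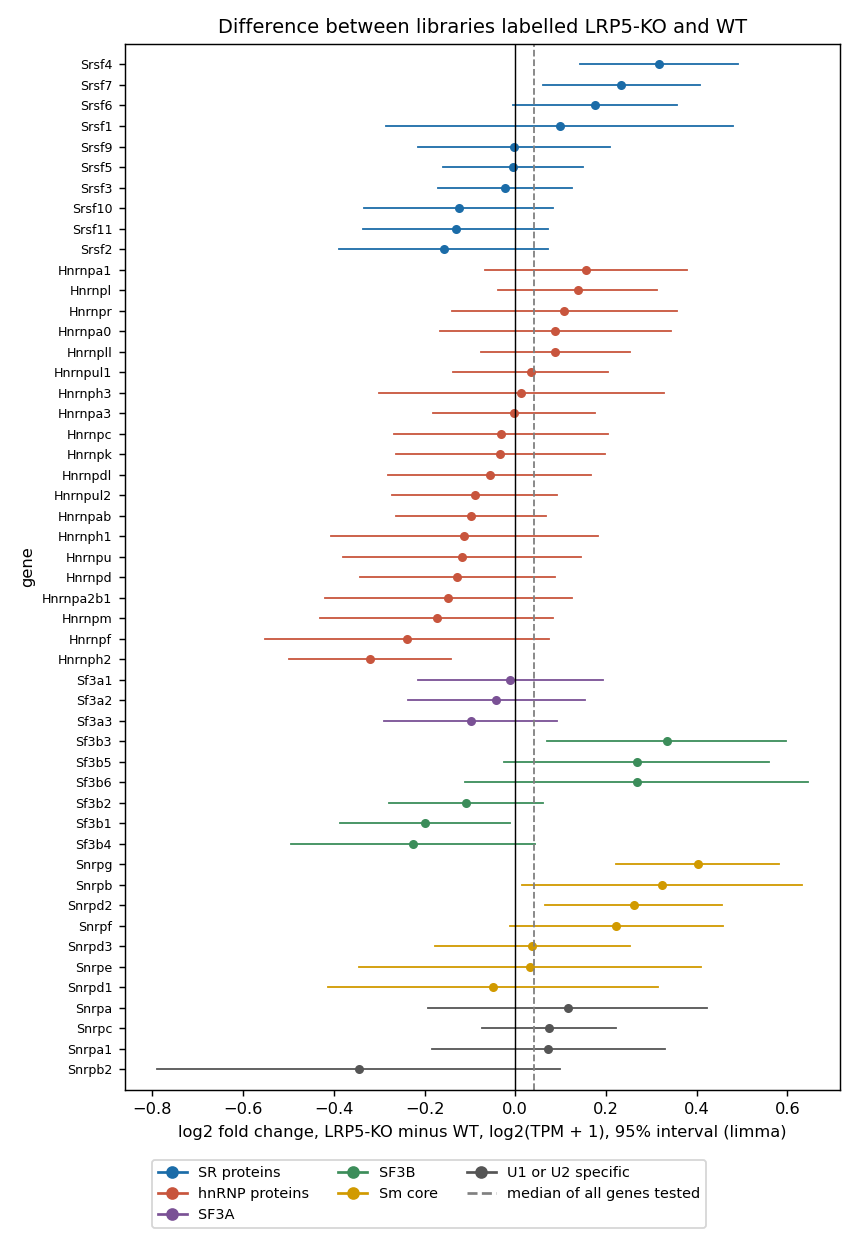
The log2 fold change (LRP5-KO minus WT, x axis, on the log2(TPM + 1) scale) is plotted for each of the 50 splicing factor genes (y axis), coloured by group, with its 95% interval from limma; the solid line marks 0 and the dashed line the median of all genes tested, 0.04. Points lie on both sides of 0 in every group but SF3A, from −0.35 to 0.40, and the Sm core has the largest median of the groups, 0.22.

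Promoter sequences are shown for the 3 genes with the smallest p, Snrpg, Srsf4 and Hnrnph2. These are examples picked by p, and not as typical of the promoters of splicing factor genes. They are RefSeq sequences of mouse build GRCm38.p6, from 250 bases before to 50 bases after the annotated start, printed 5′ to 3′ along the gene. Capitals mark CCGGAAG, the core bound by many ETS factors, and GGGCGG, the GC box, each searched on both strands, with neighbouring matches running together where they overlap. Snrpg lies at chr6:86371290-86371589, Srsf4 at chr4:131873387-131873686 and Hnrnph2 at chrX:134600929-134601228, all on the plus strand.
Snrpg: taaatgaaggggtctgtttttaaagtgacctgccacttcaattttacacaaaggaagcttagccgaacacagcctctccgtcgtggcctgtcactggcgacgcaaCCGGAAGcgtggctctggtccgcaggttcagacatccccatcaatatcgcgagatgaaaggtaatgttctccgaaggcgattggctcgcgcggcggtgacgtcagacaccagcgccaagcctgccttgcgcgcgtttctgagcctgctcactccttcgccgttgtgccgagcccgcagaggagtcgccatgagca
Srsf4: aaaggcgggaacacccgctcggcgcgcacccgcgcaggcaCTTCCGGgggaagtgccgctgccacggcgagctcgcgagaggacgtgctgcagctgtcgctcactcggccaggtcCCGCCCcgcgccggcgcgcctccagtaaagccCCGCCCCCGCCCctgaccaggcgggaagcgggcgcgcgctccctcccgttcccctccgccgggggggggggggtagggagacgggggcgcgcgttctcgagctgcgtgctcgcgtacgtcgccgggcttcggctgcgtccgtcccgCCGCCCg
Hnrnph2: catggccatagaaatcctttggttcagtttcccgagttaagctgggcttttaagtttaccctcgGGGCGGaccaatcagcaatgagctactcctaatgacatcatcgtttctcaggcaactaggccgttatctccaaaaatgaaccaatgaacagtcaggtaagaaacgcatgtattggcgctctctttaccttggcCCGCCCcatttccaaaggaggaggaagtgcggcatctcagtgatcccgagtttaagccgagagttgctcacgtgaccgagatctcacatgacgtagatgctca
The Snrpg promoter had 26 CG dinucleotides, 57.3% GC, 1 ETS core and 0 GC boxes. The Srsf4 promoter was the richest of the 3 in GC, at 77.7%, with 49 CG dinucleotides, 1 ETS core and 4 GC boxes. The Hnrnph2 promoter had 49.0% GC, 14 CG dinucleotides, 0 ETS cores and 2 GC boxes. None of these windows held TATAAA. Of 44 tested splicing factor genes with a promoter in the table, 36.4% held CCGGAAG, against 9.12% of all 27025 promoters, and 70.5% held GGGCGG, against 35.9%. TATAAA was found in 13.6% of them and in 14.2% of all promoters. The promoters of the 44 genes were also richer in GC (median 60.2%, against 52.7% for all promoters) and in CG dinucleotides (24.5 against 7), and the comparison set was not limited to expressed genes. A match describes the letters of these windows and does not show binding.

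Of the 6 groups of splicing factor genes, the Sm core had the largest median difference. The Sm core kept a positive median under every alternative scaling and adjustment tried (0.12, with GC and length trends removed, to 0.27). Its summed level was 115, 121 and 115 TPM in the libraries labelled WT and 138, 133 and 129 TPM in those labelled LRP5-KO (117 ± 3.65 and 133 ± 4.19 TPM, SD, n = 3 each), so the groups did not overlap. Of 7 Sm genes tested, 6 had a positive log2 fold change, the median was 0.22 and 0 passed the adjusted threshold. There were 3 at an unadjusted p under 0.05 (42.9%, against 23.5% of all genes tested) and 3 with groups that did not overlap (42.9%, against 29.7%). The group was singled out by these same values, and 3 of 7 genes are too few to be read against those shares. Snrpg, which encodes SmG, was at 14.0, 14.1 and 15.6 TPM in the WT group and 19.7, 20.4 and 18.8 TPM in the LRP5-KO group, each in the order of replicates 1 to 3, as for every gene below. All values labelled LRP5-KO were above all values labelled WT, and this was the splicing factor gene with the smallest p (log2 fold change 0.40, standard error 0.077, limma adjusted p = 0.0675). Snrpd2, encoding SmD2, was at 7.15, 8.33 and 7.78 TPM in the WT group and 9.88, 8.96 and 9.60 TPM in the LRP5-KO group. These values did not overlap (log2 fold change 0.26, standard error 0.083, limma adjusted p = 0.144). Snrpb, encoding SmB, was at 28.0, 36.5 and 40.7 TPM in the WT group and 45.0, 41.3 and 44.6 TPM in the LRP5-KO group. WT replicate 3 lay just under the lowest LRP5-KO value and WT replicate 1 far below it (log2 fold change 0.32, standard error 0.13, limma adjusted p = 0.200). For Snrpf, encoding SmF, the WT values were 5.32, 4.85 and 5.39 TPM and the LRP5-KO values 5.37, 6.50 and 6.87 TPM. Here LRP5-KO replicate 1 lay among the WT values (log2 fold change 0.22, limma adjusted p = 0.232). The other 3 tested, Snrpd1, Snrpd3 and Snrpe, had log2 fold changes of −0.05, 0.04 and 0.03, with overlapping groups.

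The SR protein genes tested had a median level of 32.5 TPM, against 30.6 TPM over all 50 splicing factor genes. Srsf5, the most abundant of the 50, was at 291, 283 and 296 TPM in the WT group and 306, 273 and 289 TPM in the LRP5-KO group. The LRP5-KO values spread on both sides of the WT values, with a log2 fold change of −0.0052 and a 95% interval of −0.16 to 0.15. Of 10 SR genes tested, 4 had a positive and 6 a negative difference, with a median of −0.0042. Srsf4 was at 21.7, 22.4 and 23.9 TPM in the WT group and 27.4, 27.9 and 30.1 TPM in the LRP5-KO group. It was the second of all splicing factor genes by p, without overlap of the groups (log2 fold change 0.32, standard error 0.075, limma adjusted p = 0.0977). Srsf7, whose product also takes part in mRNA export, was at 16.2, 17.9 and 16.3 TPM in the WT group and 20.4, 19.1 and 20.3 TPM in the LRP5-KO group. Again every LRP5-KO value was above every WT value (log2 fold change 0.23, standard error 0.074, limma adjusted p = 0.143). Srsf6 was at 32.5, 34.1 and 35.2 TPM in the WT group and 39.6, 40.4 and 35.5 TPM in the LRP5-KO group. LRP5-KO replicate 3 lay close to WT replicate 3 (log2 fold change 0.18, standard error 0.077, limma adjusted p = 0.220). Srsf1, chosen after its values were seen for a single high library, was at 22.1, 18.4 and 20.8 TPM in the WT group and 18.0, 28.6 and 20.3 TPM in the LRP5-KO group. Only LRP5-KO replicate 2 was high, and the log2 fold change was 0.10 (limma adjusted p = 0.748). Srsf2, Srsf3, Srsf9, Srsf10 and Srsf11 had log2 fold changes between −0.16 and −0.0032, with overlapping groups.

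**Figure D2:**
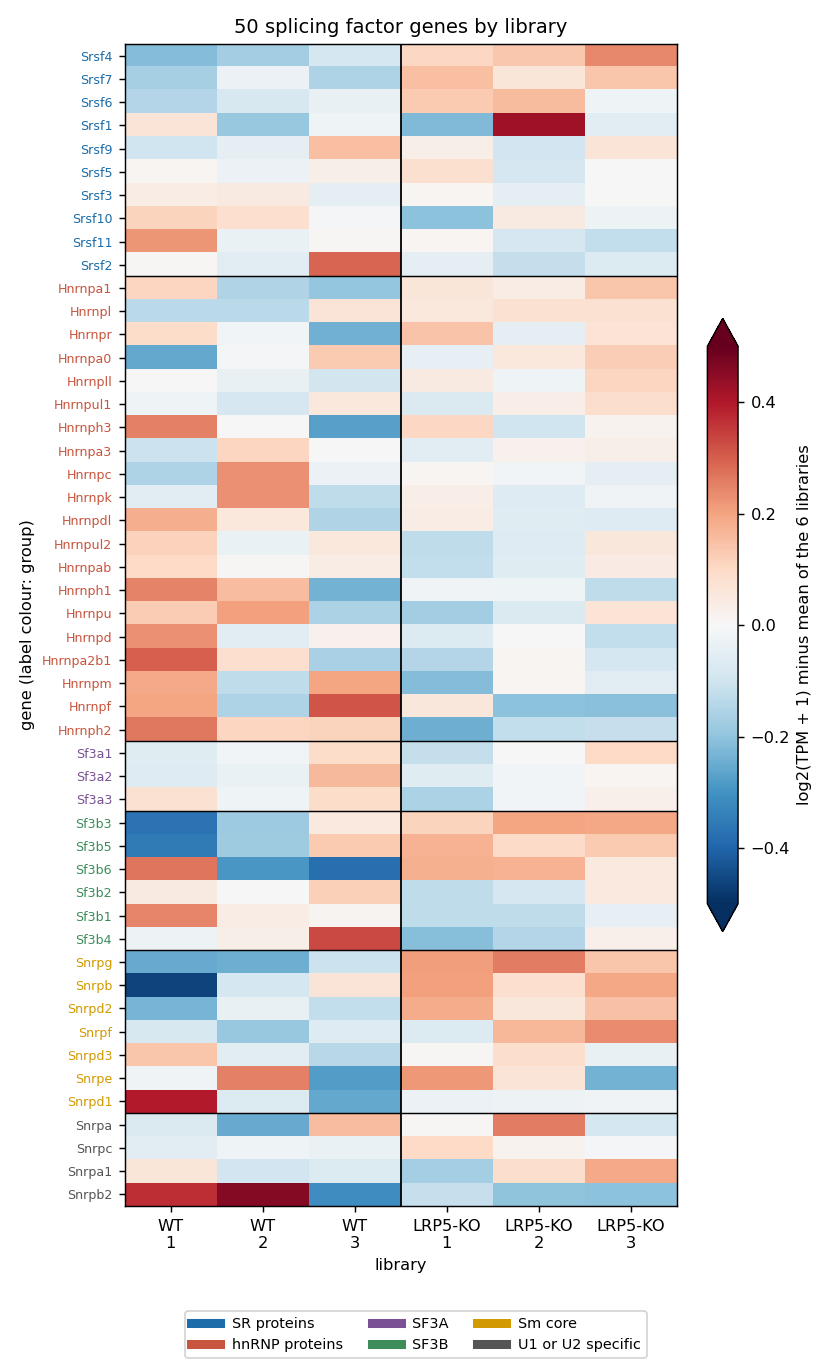
Each cell shows log2(TPM + 1) of 1 splicing factor gene (y axis) in 1 library (x axis) minus the mean of that gene over the 6 libraries, from blue (lower) to red (higher), with genes grouped by complex or family. Snrpg and Srsf4 change colour between the groups of libraries, while Snrpb2 in WT replicate 3 (12.4 TPM) and Srsf1 in LRP5-KO replicate 2 (28.6 TPM) stand out from their own groups.

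The 20 hnRNP genes made up more than any other group of the summed TPM of the splicing factors. Their sum was 1638, 1617 and 1555 TPM in the libraries labelled WT and 1523, 1525 and 1540 TPM in those labelled LRP5-KO (1604 ± 43.2 and 1530 ± 9.25 TPM, SD, n = 3 each). The sums did not overlap, and the lowest WT library, replicate 3, lay close to the highest LRP5-KO library. TPM has a fixed total in each library. Of that total, S100a9 held 20.4%, 20.4% and 19.5% in the WT group and 23.0%, 23.1% and 22.2% in the LRP5-KO group. The part of S100a9 in the difference of the sums was not tested. Of the 20 genes, 13 had a negative and 7 a positive log2 fold change, with a median of −0.04 that turned to 0.0011 with the ribosomal share as covariate and to 0.0081 against WT replicate 3 alone. Only 1 had an unadjusted p under 0.05 (5%, against 23.5% of all genes tested). It alone had groups that did not overlap (5%, against 29.7%). That gene was Hnrnph2, of the hnRNP H and F family that binds runs of G, at 65.7, 59.0 and 59.1 TPM in the WT group and 46.0, 50.1 and 50.3 TPM in the LRP5-KO group. The groups did not overlap (log2 fold change −0.32, standard error 0.077, limma adjusted p = 0.1001). Its relatives Hnrnph1, Hnrnph3 and Hnrnpf had log2 fold changes of −0.11, 0.01 and −0.24, with overlapping groups and limma adjusted p of 0.614, 0.963 and 0.318. Hnrnpk, which binds C-rich RNA and was the most abundant of the hnRNP genes, was at 238, 289 and 225 TPM in the WT group and 252, 236 and 243 TPM in the LRP5-KO group. The WT values lay on both sides of the LRP5-KO values (log2 fold change −0.03, limma adjusted p = 0.863). Hnrnpa2b1, chosen after its values were seen, was at 202, 174 and 147 TPM in the WT group and 149, 165 and 155 TPM in the LRP5-KO group. WT replicate 3 was the lowest of the 6 libraries and WT replicate 1 the highest (log2 fold change −0.15, limma adjusted p = 0.470).

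Within SF3B, the U2 complex that grips the branch point, genes lay on both sides. Sf3b1, which contacts the branch point region and is recurrently mutated in myelodysplastic syndromes, was at 158, 136 and 134 TPM in the WT group and 122, 121 and 129 TPM in the LRP5-KO group. All LRP5-KO values were below all WT values (log2 fold change −0.20, standard error 0.081, limma adjusted p = 0.196). Sf3b3, a scaffold of the complex, was at 6.50, 7.56 and 9.05 TPM in the WT group and 9.48, 10.1 and 10.1 TPM in the LRP5-KO group. These did not overlap either, in the opposite direction, with WT replicate 3 nearest to the LRP5-KO values (log2 fold change 0.33, standard error 0.11, limma adjusted p = 0.155). Sf3b5, a small subunit, was at 5.23, 6.04 and 7.73 TPM in the WT group and 7.99, 7.52 and 7.73 TPM in the LRP5-KO group. WT replicate 3 fell among the LRP5-KO values (log2 fold change 0.27, limma adjusted p = 0.241). Sf3b4 was at 18.1, 18.8 and 23.5 TPM in the WT group and 15.8, 16.6 and 18.8 TPM in the LRP5-KO group, overlapping at the edge (log2 fold change −0.22, limma adjusted p = 0.281). Sf3b2, the most abundant gene of SF3B, was at 171, 166 and 180 TPM in the WT group and 152, 157 and 171 TPM in the LRP5-KO group (log2 fold change −0.11, limma adjusted p = 0.394). Sf3b6 had the highest upper bound of the 50 genes, at 0.65, around a log2 fold change of 0.27. The 3 genes of SF3A had log2 fold changes between −0.10 and −0.01. Sf3a2, the most abundant of them, was at 18.8, 19.2 and 22.2 TPM in the WT group and 18.9, 19.6 and 19.9 TPM in the LRP5-KO group, with WT replicate 3 alone above the rest (limma adjusted p = 0.794).

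**Figure D3:**
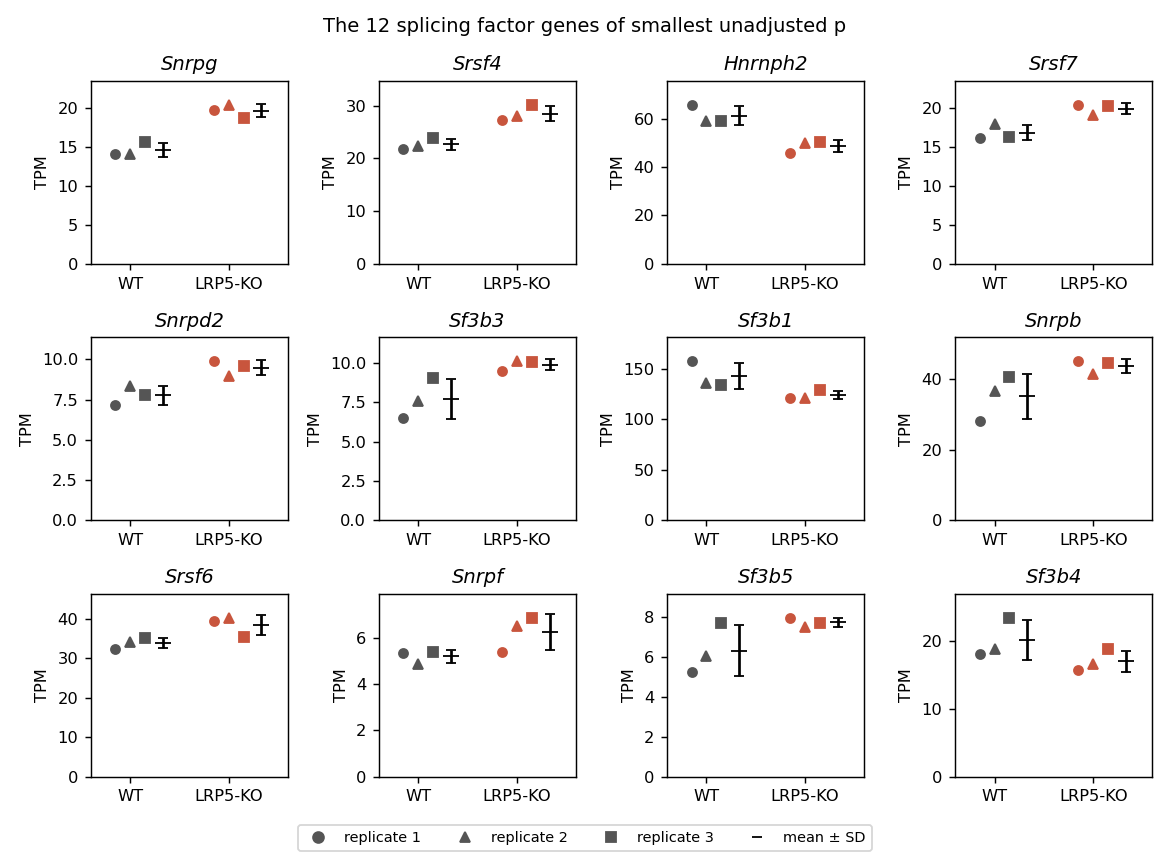
TPM (y axis, from 0) of the 12 splicing factor genes with the smallest unadjusted p is plotted for each library labelled WT or LRP5-KO (x axis), with replicate numbers as symbols and the mean ± SD (n = 3) beside them. Snrpg lies at 14.0 to 15.6 TPM in the WT group and at 18.8 to 20.4 TPM in the LRP5-KO group, while in Sf3b5 WT replicate 3 (7.73 TPM) sits among the LRP5-KO libraries.

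Of the proteins particular to U1 or U2, Snrpc encodes U1-C, which helps U1 recognise the 5′ splice site. Its values were 78.6, 80.4 and 79.7 TPM in the WT group and 87.6, 82.6 and 81.2 TPM in the LRP5-KO group. They did not overlap, yet the log2 fold change was 0.07 (limma adjusted p = 0.507). Snrpb2, the U2 B″ protein, was chosen after its values were seen, at 20.5, 21.8 and 12.4 TPM in the WT group and 14.3, 13.5 and 13.4 TPM in the LRP5-KO group. WT replicate 3 was the lowest of all 6 libraries and WT replicates 1 and 2 the highest (log2 fold change −0.35, standard error 0.19, limma adjusted p = 0.309). Snrpa and Snrpa1 had log2 fold changes of 0.12 and 0.07, with overlapping groups.

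How many splicing factor genes were called depended on WT replicate 3. Its value was nearer to the LRP5-KO mean than to the mean of the other WT libraries in 26 of the 50 genes (52%), against 62.3% of all genes tested. Without it, 9 of the 50 genes passed an adjusted p of 0.05 in limma, against 19.6% of all genes tested. Hnrnpl, Snrpb, Srsf4, Sf3b3, Snrpg and Sf3b5 were then higher in the libraries labelled LRP5-KO, and Hnrnph1, Snrpb2 and Hnrnph2 lower, Snrpb2 by the most (−0.59 on the log2 scale, limma adjusted p = 0.0105). With trends along GC content and transcript length removed, 3 genes passed, Srsf4 (0.24), Snrpg (0.30) and Sf3b4 (−0.33), against 4.85% of all genes tested. With TPM rescaled without the most abundant genes, Snrpg alone passed (0.44, limma adjusted p = 0.0474), against 0.986% of all genes tested. The 9 of 50 called without WT replicate 3 were a share close to that background, and the other counts are too small to be read against theirs.

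The size of several differences also depended on the setting. Of the 17 splicing factor genes given by library under the rule, Snrpg and Srsf4 stayed within 1.5 times their log2 fold change in every setting tried. With GC and length trends removed, Snrpd2 moved from 0.26 to 0.08, Snrpb from 0.32 to 0.17, Sf3b5 from 0.27 to 0.08, Hnrnph2 from −0.32 to −0.17 and Sf3b1 from −0.20 to −0.11, while Srsf7 moved from 0.23 to 0.45, Srsf6 from 0.18 to 0.28, Snrpf from 0.22 to 0.34 and Sf3b2 from −0.11 to −0.20. Without WT replicate 1, Snrpb moved to 0.17, Sf3b5 to 0.16 and Sf3b1 to −0.13. Sf3b4 moved to −0.12 without WT replicate 3 and to −0.44 against that library alone. Against WT replicate 3 alone, Sf3b3 was at 0.12, Snrpb at 0.10, Sf3b5 at 0.0026, Sf3b1 at −0.11 and Sf3b2 at −0.17. With the ribosomal share as covariate, Sf3b3 was at 0.18, Snrpb at 0.17, Sf3b5 at 0.09 and Sf3b4 at −0.38. Without LRP5-KO replicate 1, Sf3b2 was at −0.07 and Snrpc at 0.04.

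The rest of the splicing machinery was examined in 9 lists, from the tri-snRNP to regulators of splicing, with 170 genes listed and 160 tested. None of the 160 passed the adjusted threshold in limma, 26 had an unadjusted p under 0.05 (16.2%, 17 higher and 9 lower, against 23.5% of all genes tested), and the median log2 fold change was −0.0015, with 80 genes on each side. Groups did not overlap for 35 genes (21.9%), against 29.7% of all genes tested. By list, the median was 0.11 for 23 genes of the U5 and U4/U6 snRNPs, 0.08 for 18 genes associated with U1 and U2, 0.02 for 24 genes of the PRP19 complex and the catalytic steps, −0.06 for 9 genes of the minor spliceosome and 0.05 for 13 genes of the exon junction complex. It was −0.0064 for 18 SR-related proteins, −0.04 for 8 SR protein kinases, −0.02 for 37 other regulators and −0.03 for the 10 tested of 16 genes of snRNP assembly.

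For 8 of the 9 lists, the gene with the smallest p shows the size of these differences. Rsrp1, an arginine- and serine-rich protein, was at 73.3, 61.9 and 65.4 TPM in the WT group and 86.7, 90.9 and 105 TPM in the LRP5-KO group (log2 fold change 0.49, limma adjusted p = 0.0777). Every LRP5-KO value was above every WT value. Sart3, which recycles U4/U6, was at 9.78, 8.89 and 10.4 TPM in the WT group and 13.3, 11.3 and 12.4 TPM in the LRP5-KO group (0.32, limma adjusted p = 0.124). Aqr, the intron-binding helicase, was at 5.30, 5.58 and 6.44 TPM against 6.80, 7.29 and 7.77 TPM (0.29, limma adjusted p = 0.144). These also did not overlap. Smndc1, an SMN-related splicing factor, was at 69.3, 63.9 and 55.3 TPM in the WT group and 49.8, 49.2 and 49.9 TPM in the LRP5-KO group (−0.33, limma adjusted p = 0.123). Zcrb1, a protein of the minor U11/U12 snRNP, was at 74.1, 69.9 and 58.0 TPM against 50.1, 48.6 and 56.8 TPM (−0.37, limma adjusted p = 0.133). Both were lower in every library labelled LRP5-KO, with WT replicate 3 the nearest to them. Gemin7 of the SMN complex was at 36.1, 43.6 and 44.1 TPM in the WT group and 52.7, 44.0 and 58.8 TPM in the LRP5-KO group (0.32, limma adjusted p = 0.190). Sap18 was at 25.6, 32.6 and 24.5 TPM against 33.1, 31.9 and 35.5 TPM (0.28, limma adjusted p = 0.196). Clk2, an SR protein kinase, was at 18.3, 15.5 and 18.3 TPM against 18.0, 19.3 and 20.1 TPM (0.13, limma adjusted p = 0.401), and in these last 3 the groups overlapped.

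The share of reads that fell in introns was 8.60%, 7.78% and 9% in the libraries labelled WT (replicates 1 to 3 in order) and 10.95%, 11.23% and 10.62% in those labelled LRP5-KO. Every library labelled LRP5-KO was above every library labelled WT, by 2.47 percentage points on average (8.46% ± 0.622 and 10.9% ± 0.305, SD, n = 3 each, p = 0.1 in a two-sided exact permutation test, which with 3 against 3 can give no smaller p). Reads in coding sequence and UTRs were 86.05%, 87.03% and 83.84% in the WT group and 82.39%, 81.85% and 82.41% in the LRP5-KO group. Between 99.37% and 99.51% of reads were on the correct strand. The summed TPM of all 57 splicing factor genes was 2994, 2906 and 2884 in the WT group and 2857, 2827 and 2866 in the LRP5-KO group. Every WT sum was above every LRP5-KO sum (2928 ± 57.9 and 2850 ± 20.3 TPM, SD, n = 3 each). The median deviation of the 50 genes from their 6-library means, on the log2 scale, was 0.02, −0.03 and −0.01 in the WT group and 0.0062, 0.0012 and 0.02 in the LRP5-KO group, with no separation of the groups. As the libraries fall into separate clusters by intronic share, no correlation of that share with splicing factor levels was computed over them, and a relation within the groups of 3 was not tested. The intronic share counts reads over the whole library and does not tell retained introns from pre-mRNA.

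**Figure D4:**
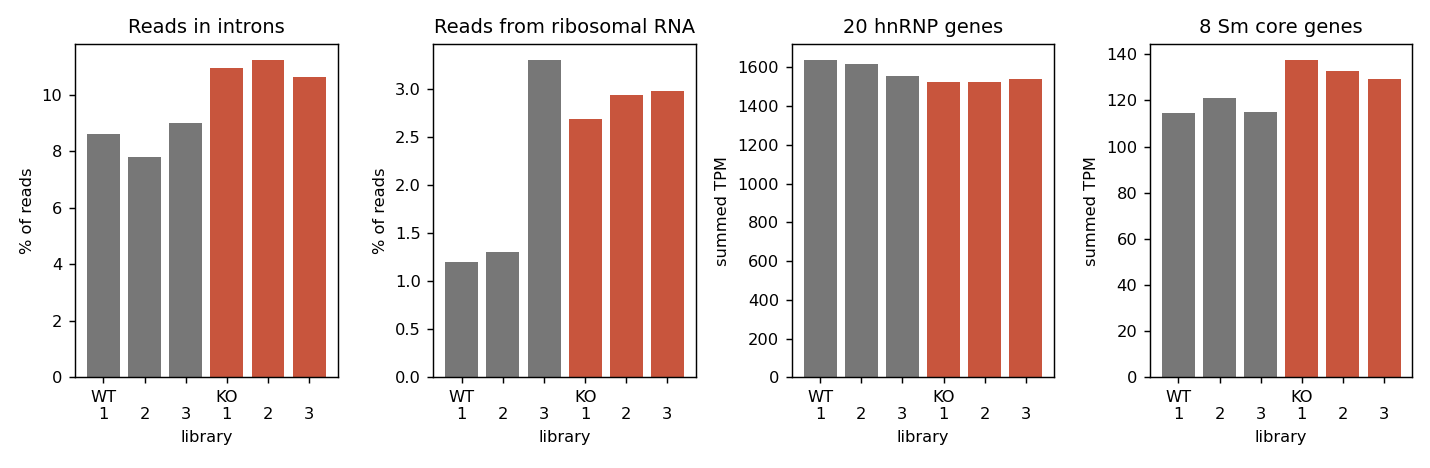
Bars from 0 show, for each of the 6 libraries (x axis; grey, labelled WT; red, labelled LRP5-KO), the percent of reads in introns, the percent of reads from ribosomal RNA, and the summed TPM of the 20 hnRNP genes and of the 8 Sm core genes listed. Intronic reads are above 10.6% in all LRP5-KO libraries and at most 9% in the WT libraries, WT replicate 3 is high in ribosomal reads (3.30%), and the Sm core sum is 115 to 121 TPM in the WT group and 129 to 138 TPM in the LRP5-KO group.

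Sums of some cell type markers also differed between the groups of libraries. The counts below are to be read against 29.7% of all genes tested with groups that did not overlap and 23.5% at an unadjusted p under 0.05. The summed level of 7 markers of immature neutrophils was 427 to 466 TPM in the WT group and 517 to 537 TPM in the LRP5-KO group, 5 of the 7 had groups without overlap, all higher, and the median log2 fold change was 0.32, with 5 at an unadjusted p under 0.05 and 0 called in limma. The summed level of 10 markers of cycling cells was 188 to 191 TPM in the WT group and 209 to 221 TPM in the LRP5-KO group, with 5 of 10 without overlap, all higher, and a median of 0.16, with 3 at an unadjusted p under 0.05 and 0 called in limma. No gene of either list was at 0 in any library. The part of these markers in the Sm core values was not tested. Markers of T and NK cells summed to 10.9 to 11.8 TPM in the WT group and 14.4 to 15.9 TPM in the LRP5-KO group, of which Cd3d made up most, while Cd3e was at or under 0.18 TPM. Markers of eosinophils and basophils summed to 10.1 to 12.6 and 13.05 to 14.3 TPM, and 1 of them, Prg2, an eosinophil granule protein, was called higher (mean 1.02 TPM in the WT group and 2.79 TPM in the LRP5-KO group, log2 fold change 0.91, limma adjusted p = 0.0341). Siglecf, which made up most of that sum, had a log2 fold change of 0.03. Markers of megakaryocytes summed to 3.01 to 4.40 and 4.79 to 5.65 TPM and those of progenitors to 6.35 to 7.58 and 7.76 to 8.73 TPM. Sums for B cells (13.1 to 14.7 and 12.9 to 14.0 TPM), erythroid cells (45.8 to 54.0 and 40.0 to 50.1 TPM) and monocytes (564 to 724 and 634 to 687 TPM) overlapped between groups. Ly6c2 made up most of the monocyte sum and Kit most of the progenitor sum. Of 6 monocyte markers tested, 3 had a positive and 3 a negative log2 fold change. Only Adgre1 among them had groups without overlap, and it was higher in the LRP5-KO group (log2 fold change 0.36, limma adjusted p = 0.103).

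The differences of the splicing factor genes were also set beside properties of their transcripts, as descriptions across genes, which share the same libraries and are not independent replicates. The median GC content of their longest coding transcripts was 47.4%, against 49.98% over all genes tested, the median transcript length was 2548.5 bases against 2926, and the median intronic length was 6774.5 bases against 17107. Spearman's rho of the log2 fold change with GC content was 0.28 over the 50 genes and 0.49 over all genes with a value. With transcript length it was −0.37 over the 50 genes and −0.07 over all genes, and with intronic length −0.10 and −0.11. The Sm genes tested had a median transcript length of 741 bases, the shortest of the groups.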

How the data were processed

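RNA of bone marrow neutrophils was analysed in 6 libraries, 3 labelled WT and 3 labelled LRP5-KO. Gene levels were deposited by the authors in TPM. A second table deposited by the authors holds read counts for each library, the percent of reads in each class, a coverage ratio at either transcript end and a score of coverage variation. The labels name mm9 and DESeq2, and the tool that made the TPM is not given in the sources used here. The gene identifiers come from an annotation later than mm9. The labels name a Percoll gradient and an mRNA kit, whereas the methods name sorting on CD11b and Ly6G, total RNA with strand kept, and single-end sequencing, and the read table lists paired ends.

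Genes averaging 1 TPM or more were compared on log2(TPM + 1), a scale that understates differences of low genes, with limma (version 3.58.1, R version 4.3.3), a mean-variance trend, no covariates and Benjamini-Hochberg adjustment over 9775 genes. No count model was run on TPM. The script was tested on simulated data. Transcript length and GC content came from GENCODE M1 (NCBIM37), matched on identifiers without version. Alternatives were another pseudocount (0.1), no filter or 5 TPM, median-ratio scaling, rescaling after dropping mitochondrial transcripts together with the top 20 genes, no trend, the ribosomal share as covariate, removal of GC and length trends, the replicate number as a block, and each library left out. The comparison with WT replicate 3 alone was chosen after seeing the data. Members and gene lists were chosen with earlier results of these data known. Values per library are given for the 12 splicing factor genes of smallest p, the most abundant of each group and the gene of smallest p in each other list, of which 1 is not reported here. Genes outside this rule are named as chosen after their values were seen.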

Additional observations from a re-analysis of the deposited data

How the results depend on the processing

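The number of all genes called was 52 (26 higher) and moved to 3 without a filter, 29 with a mean of at least 5 TPM, 96 after rescaling without the most abundant genes (69 higher), 6 with the ribosomal share as covariate, 425 with GC and length trends removed (157 higher), 4 with the replicate number as a block, 6 against WT replicate 3 alone, and 2 to 1920 with 1 library left out. Splicing factor genes called, of 50, moved from 0 to 1 after rescaling, against 0.986% of all genes tested. They moved to 3 with GC and length trends removed (against 4.85%) and to between 0 and 9 with 1 library left out. The 9 came without WT replicate 3, against 19.6% of all genes tested in that setting. Other splicing genes called moved from 0 to 4 of 159 with GC and length trends removed, against the same 4.85%. With 1 library left out they moved to between 0 and 22 of 160. The 22 also came without WT replicate 3, against the same 19.6%. The median log2 fold change of the 50 genes was −0.0475 under median-ratio scaling, 0.0220 after rescaling, 0.0506 against WT replicate 3 alone and between −0.0275 and 0.0086 with 1 library left out. The median of the Sm genes stayed positive in all settings, from 0.12 to 0.27, while that of the hnRNP genes turned positive with the covariate (0.0011) and against WT replicate 3 alone (0.0081). Genes near 0 changed sign: Srsf5 after rescaling (0.0212), with GC and length trends removed (0.0550) and between −0.0461 and 0.0352 with 1 library left out, Hnrnpk with the covariate (0.0633), with GC and length trends removed (0.0854), against WT replicate 3 alone (0.112) and between −0.105 and 0.0733 with 1 library left out, Snrpc with GC and length trends removed (−0.0665), and Sf3a2 between −0.0848 and 0.0293 with 1 library left out. Sf3a2 also moved from −0.0417 to −0.141 with the ribosomal share as covariate. It was at −0.183 with GC and length trends removed and at −0.184 against WT replicate 3 alone. Snrpc moved from 0.0737 to 0.0301 under median-ratio scaling. The cause of these moves was not tested. The deviations of libraries with the same number correlated at 0.23, −0.0075 and 0.13. Whether the numbers pair the samples is not settled by these values. With the replicate block 0 splicing factor genes were called, and 4 of 6 libraries correlated best with their own number, as a hint from the data. The intronic difference was 2.13 to 2.74 points with 1 library left out. TPM keeps no depth, so counting error of single genes is unknown.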
